A study of Picea abies with 19 samples.

Results

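Transcript levels in root ends of Norway spruce (Picea abies) were compared among the slow genotypes, those whose sample titles begin with Slow, in cuttings harvested 18 months after adventitious root initiation. They were chosen by title and age alone and make up 8 of the 19 arrays of the series and 4 of its 8 genotypes. Genotypes 52, 61 and 70, with 2 arrays each, were tested against each other on 6 arrays. Genotype 76, also with 2 arrays, is shown beside them and was not tested. All had grown in fertilised Sphagnum peat in 1 nursery, and all arrays carried adventitious root tissue. The labels name no treatment. The protocols call the genotypes clones, so each is 1 clone, and each sample pooled several root ends, about 1 cm long. Fast genotypes 18, 20 and 35 of the same age, with 2 arrays each, entered the fit to estimate the spread between arrays. Fast genotype 15, with 1 array, and slow genotype 52 at 5 months, with 2 arrays, serve as further values beside the results. The sources used here do not give what the words Fast and Slow measure. The arrays of a genotype at 18 months also share a further number in their titles, whose meaning is unstated, so genotype and this number cannot be told apart. The labels call the arrays of a genotype biological samples but do not say whether they came from separate plants, so the p-values measure only the spread between these samples.

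Cuttings of 1 clone carry the same nuclear genome, so clones differ by inheritance, while cuttings of a clone can differ by rooting, soil patch and handling. Fine root ends of a conifer hold the growing tip, the zone of uptake and often the mantle of ectomycorrhizal fungi. At an oligonucleotide probe, the amount of a transcript, its sequence under the probe and the presence of its gene cannot be told apart. Less RNA per cell and fewer cells of a type cannot be told apart either. The files give probes by ID with no gene name, so root marker genes were not looked up and probes are described by their levels.

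The arrays held 32144 spruce probes, each spotted once. Between 8001 and 15427 of them were above background on the 6 tested arrays, where above background means a median spot intensity more than 2 background standard deviations over the local background. In genotype 76 the numbers were 12861 and 4944. Levels are log2 intensities after background correction and quantile normalisation, so 1 unit is a factor of 2 in signal, and levels of different probes are not compared. Of all probes, 14778 were above background on at least 2 of the 6 arrays and were tested.

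Some features of the arrays come before the results. The scanner files record 9 scan days. Both arrays of genotype 52 were scanned on day 4, together with replicate 1 of fast genotype 20 and no other array. Genotype 61 was scanned on days 1 and 6 and genotype 70 on days 2 and 7, so each had replicate 1 in an early scan period (days 1 to 4) and replicate 2 in a later one (days 5 to 7). The arrays of genotype 76 were scanned on days 8 and 9, after all others.

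The authors' deposited table of log2 values disagreed with the scanner files on which sample is which. Compared probe by probe after centring, the scanner files of genotype 52 replicates 1 and 2 matched the table columns named for genotype 61 replicates 2 and 1, at correlations of 0.925 and 0.890. Both sources therefore keep these 2 arrays together as 1 genotype but name it differently. The file of genotype 70 replicate 1 matched a column named for fast genotype 20 at 18 months, at 0.903. The file of genotype 76 replicate 2 matched a column named for genotype 52 at 5 months, at 0.947. The other 4 files of slow genotypes at 18 months matched no column above 0.496. All names below are those of the scanner files, and the direction of every difference rests on them.

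In addition, arrays of the same genotype were not always each other's nearest. Across the 14778 tested probes the replicates of genotype 52 correlated at 0.944, those of 61 at 0.819, those of 70 at 0.828 and those of 76 at 0.575. The 12 pairs from different genotypes among 52, 61 and 70 ranged from 0.735 to 0.849, with a median of 0.832. Replicate pairs of genotypes 61 and 70 thus lay within the range of pairs from different genotypes, and only the pair scanned on 1 day stood above it. Among all 19 arrays, the nearest array was of the same genotype for 2 of the 6 tested arrays and of the same scan day for 5 of 6. Genotype 61 replicate 2 was nearest to fast genotype 18 replicate 1 of the same scan day, at 0.930. Genotype 70 replicate 2 was nearest to fast genotype 20 replicate 2 of the same scan day, at 0.935. These are correlations across probes, which are not independent replicates and share normalisation and scan conditions.

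**Figure D1:**
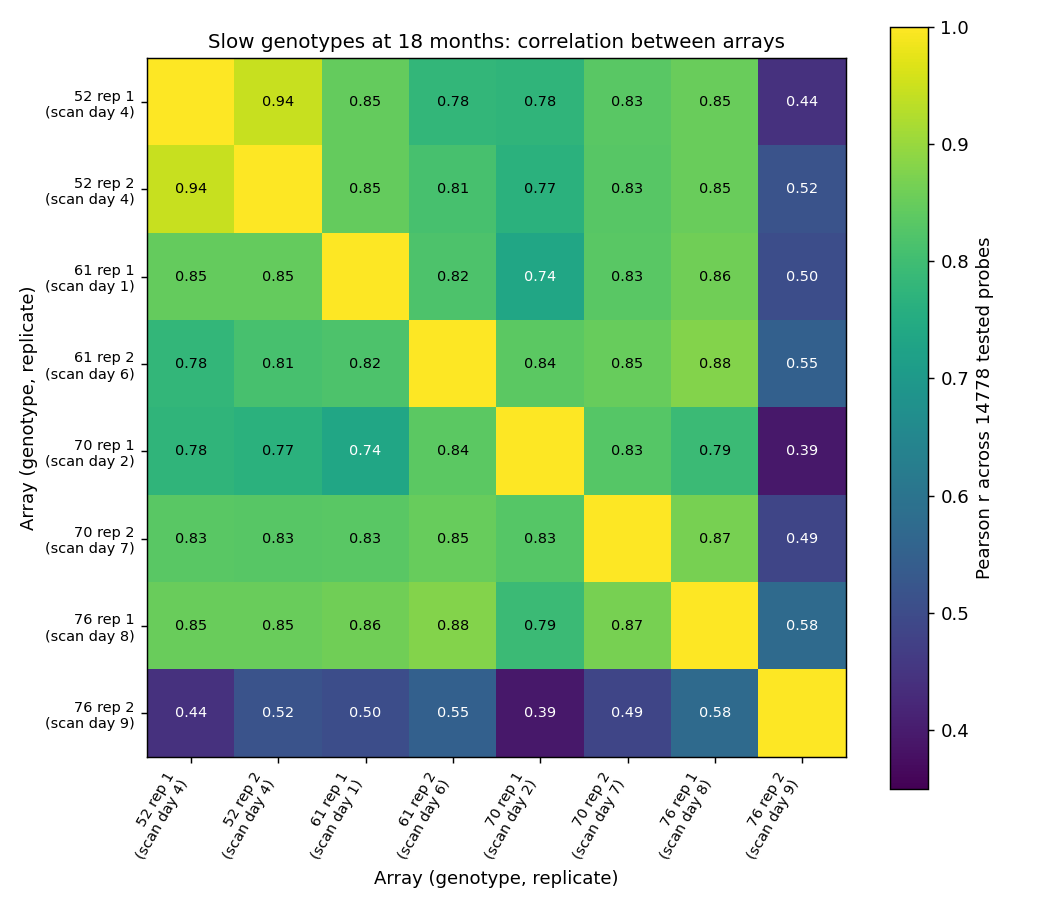
Pearson correlation of normalised log2 intensity across the 14778 tested probes for each pair of the 8 slow arrays at 18 months, with the scan day of each array in brackets. The pair of genotype 52 stands highest at 0.944, and genotype 76 replicate 2 is the dark row and column.

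The comparison of genotypes 52, 61 and 70 asks which transcripts differ between slow clones in root ends of the same age. Most probes did not pass the test, and those that did differed strongly. In limma's moderated F-test, 184 of 14778 probes (1.25%) had an adjusted p under 0.05, the lowest being 6.11e-05. Leaving out 1 array at a time moved this count between 26, without genotype 52 replicate 2, and 412, without either array of fast genotype 20. An unadjusted p below 0.05 was reached by 2851 probes, where 738.9 would be expected if no probe differed. Among the 184 probes the span from the lowest to the highest genotype mean had a median of 2.73 log2 units and ranged from 1.68 to 6.90. Among all tested probes the median span was 0.82.

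The passing probes were spread over the 6 possible orders of highest and lowest genotype. Genotype 52 was highest and 70 lowest in 36 of them (19.6%, against 20.7% of all tested probes), and 52 was highest and 61 lowest in 29 (15.8% against 17.8%). Genotype 61 was highest and 52 lowest in 29 (15.8% against 14.9%), and 61 was highest and 70 lowest in 30 (16.3% against 14.3%). Genotype 70 was highest and 61 lowest in 32 (17.4% against 15.3%), and 70 was highest and 52 lowest in 28 (15.2% against 16.9%). These shares are near those of all tested probes.

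At 88 of these 184 probes (47.8%), some genotype had signal above background on neither of its arrays, against 20.4% of all tested probes. In 52 probes (28.3%) all 6 arrays were above background, against 43.3% of all tested. At 5 probes an array reached the scanner maximum. The 184 spots lay in 47 of the 48 print blocks of the array, with at most 9 in a block, so they were not gathered in 1 place on the slide.

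Pairwise, 64 probes differed between genotypes 61 and 52, of which 30 (0.203%) were higher in 61 and 34 (0.23%) were lower. Between genotypes 70 and 52, 125 probes differed, of which 64 (0.433%) were higher in 70 and 61 (0.413%) were lower. Between genotypes 70 and 61, 72 probes differed, of which 41 (0.277%) were higher in 70 and 31 (0.21%) were lower. With the 6 slow arrays normalised and fitted alone, the calls split into 14 higher and 6 lower for 61 against 52, 18 and 4 for 70 against 52, and 6 and 2 for 70 against 61. Leaving out 1 array at a time gave 2 to 257, 1 to 433 and 22 to 193 calls in the 3 pairs. The calls for 70 against 61 were 22 without genotype 70 replicate 1 and 193 without its replicate 2, and both pairs with genotype 52 were lowest without replicate 2 of 52 and highest without either array of fast genotype 20, where 161 were higher and 96 lower in 61 and 280 higher and 153 lower in 70.

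The absolute difference of the called probes had a median of 2.85 log2 units for 61 against 52, 2.63 for 70 against 52, and 2.78 for 70 against 61. The smallest called difference was 1.71 log2 units, and the 95% interval of a difference had a median half-width of 1.02 log2 units over all tested probes. The interval lay wholly within 1 log2 unit of zero for 1173 probes in 61 against 52, 1296 in 70 against 52 and 1356 in 70 against 61. Among the 6396 probes above background on all 6 arrays, 137 had such an interval in all 3 pairs. Those 137 probes are the ones for which a difference of more than 1 log2 unit in any pair fell outside the interval.

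The counts moved with scan timing in the fit, and not alike in the 3 pairs. With scan period as a term in limma, the calls were 22 for 61 against 52, 47 for 70 against 52 and 78 for 70 against 61. With scan day as a random block, at an estimated correlation within a day of 0.561, they were 12, 33 and 68. With day 4 itself as a term, a fit added after the data had been seen, they were 2, 1 and 69. Calls that involve genotype 52 were fewer under each of these fits. The terms for scan period and day 4 cannot change the difference of 70 from 61, since both have 1 array in each period and none on day 4. Those fits change only the spread it is tested against, and their counts for that pair are no check on it. Of the 72 probes, 67 also passed with scan period, 59 with the random block and 62 with day 4.

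With day 4 as a term, all 64 called differences of 61 against 52 and all 125 of 70 against 52 kept their sign. Their median absolute size was 2.30 and 1.97 log2 units, against 2.85 and 2.63. The median half-width of the 95% interval rose to 1.73 log2 units, because only fast genotype 20 has an array on day 4 and another off it. For 70 against 61 the half-width was 0.996, and the differences themselves were the same by construction.

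**Figure D2:**
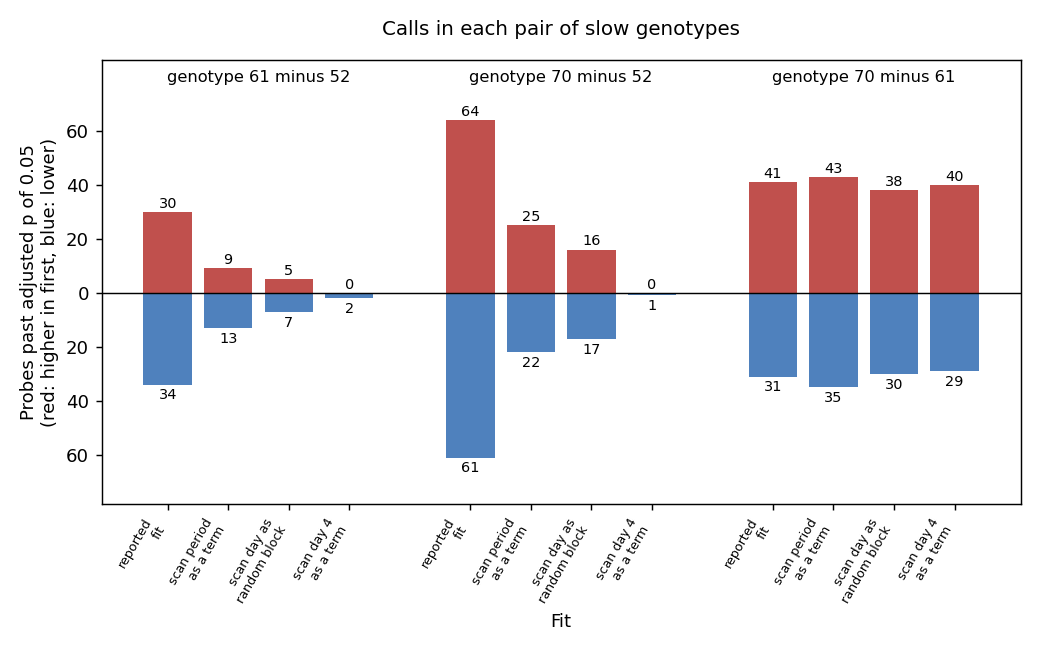
Number of probes past an adjusted p of 0.05 in each pair of slow genotypes under 4 limma fits, with probes higher in the first-named genotype above the zero line in red and lower ones below it in blue. The calls involving genotype 52 fall to 2 and 1 in the last fit, and those for 70 minus 61 range from 68 to 78, where the terms for scan period and day 4 leave the difference itself as it was.

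Genotypes 70 and 61 can be compared once in each scan period. All 72 called probes had the same sign in both periods, which the call largely fixes, while 44.0% of all tested probes did. The median absolute difference of the 72 probes was 2.99 log2 units in the early period and 2.60 in the later one. Arrays of other genotypes scanned on the same days differ in clone and some in cutting age, with 1 to 3 such arrays a day. Their difference, day of 70 minus day of 61, had the sign of the call at 25 of 72 probes (34.7%) in the early period and at 38 of 72 (52.8%) in the later one, against 51.3% and 53.4% of all tested probes. Day, clone and age cannot be told apart in these values, and no test was made of them.

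**Figure D3:**
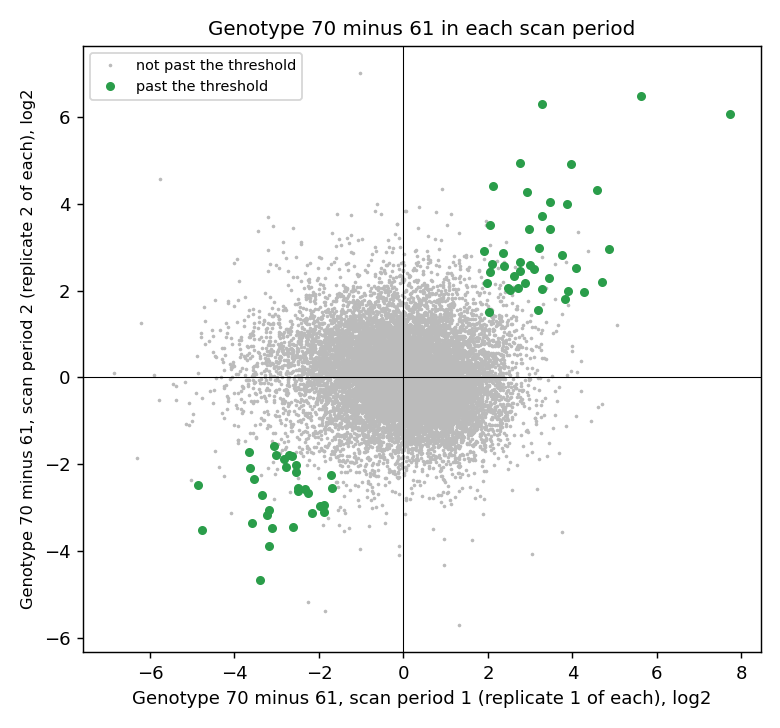
Difference of genotype 70 minus genotype 61 in log2 units in the early scan period (horizontal axis, replicate 1 of each) and in the later scan period (vertical axis, replicate 2 of each), with 1 point per tested probe and the 72 called probes in green. The grey cloud has no shared direction, and every called probe lies in the lower left or upper right.

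The day of genotype 52 can be viewed through fast genotype 20, whose replicate 1 shares day 4 and whose replicate 2 does not. Its replicate 1 minus replicate 2 had the same sign as genotype 52 minus the mean of 61 and 70 at 67.4% of the 14778 tested probes, and the 2 differences correlated at 0.58 across probes. The points share normalisation, and genotype 70 replicate 2 was scanned on the same day as fast genotype 20 replicate 2. Of the probes that passed 61 against 52, 48 of 64 had the same sign, and of those that passed 70 against 52, 98 of 125 did. Scan day and genotype 52 cannot be fully told apart.

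**Figure D4:**
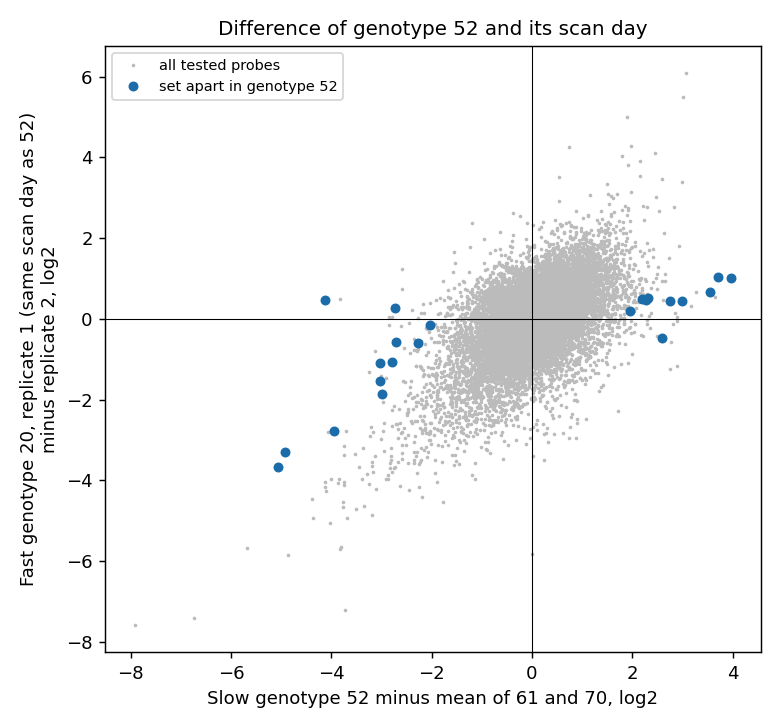
Slow genotype 52 minus the mean of genotypes 61 and 70 (horizontal axis) against fast genotype 20 replicate 1 minus replicate 2 (vertical axis), both in log2 units, with 1 point per tested probe and the 22 probes that set genotype 52 apart in blue. The cloud runs from lower left to upper right at a correlation of 0.58, and the blue points on the right lie below the diagonal, nearer to the zero line of genotype 20. The blue points were chosen for a large difference along the horizontal axis.

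Probes above background and unsaturated on all 6 arrays show differences of level without the limit of detection. The 8 with the smallest F-test p-values follow. Spruce_09655 read 10.90 and 11.23 in genotype 52, 9.12 and 9.09 in genotype 61, and 12.99 and 13.07 in genotype 70. The 3 genotypes did not overlap, and each differed from the other 2. Genotype 70 was 3.93 ± 0.36 log2 units (SE, n = 2 arrays each) above 61, a 15.3-fold difference with a limma adjusted p of 0.00141. It stood 1.97 above genotype 52 (limma adjusted p of 0.038), which stood 1.97 above 61 (limma adjusted p of 0.0451). This was the only probe set apart in 2 genotypes. Genotype 76 replicate 1 read 10.74, near genotype 52, and the 7 fast arrays ranged from 8.34 to 11.54, below genotype 70.

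Spruce_12774 was high in genotype 70 alone. It read 14.10 and 13.29 in genotype 70, against 10.11 and 10.33 in genotype 52 and 9.23 and 10.32 in genotype 61. Genotype 70 was 11.1-fold above 52 and 15.1-fold above 61, with limma adjusted p-values of 0.0143 and 0.00496. All 7 fast arrays, at 8.65 to 11.59, and genotype 76 replicate 1, at 11.10, lay below both arrays of genotype 70.

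Spruce_13654 was low in genotype 70. Its levels were 10.63 and 11.20 in genotype 70, 13.16 and 13.66 in genotype 52, and 13.97 and 13.90 in genotype 61. The difference was 5.64-fold from 52 and 8.13-fold from 61, with limma adjusted p-values of 0.0175 and 0.00496. The fast genotypes fell on both sides here. Genotype 18 read 11.36 and 11.82 and genotype 20 read 11.46 and 11.66, near genotype 70, while genotype 35 read 13.82 and 13.66, near the other slow genotypes.

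Spruce_12401 and Spruce_13053 were low in genotype 61. Spruce_12401 read 10.12 and 9.60 in genotype 61, 13.84 and 13.30 in genotype 52, and 13.09 and 13.03 in genotype 70. Spruce_13053 read 9.93 and 10.27 in genotype 61, 13.32 and 13.63 in genotype 52, and 12.69 and 12.92 in genotype 70. At neither probe did the arrays of genotype 61 overlap those of 52 or 70. Genotype 61 was 13.1-fold below 52 and 9.18-fold below 70 at the first probe, with limma adjusted p-values of 0.00931 and 0.0156. At Spruce_13053 it was 10.3-fold and 6.52-fold below, with limma adjusted p-values of 0.0145 and 0.0298.

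Spruce_11769 was low in genotype 52, at 11.45 and 11.69, against 14.69 and 14.91 in genotype 61 and 13.93 and 14.84 in genotype 70. The differences were 9.37-fold and 7.04-fold, with limma adjusted p-values of 0.0222 and 0.0296. All 7 fast arrays were above genotype 52, and the lowest of them, at 13.47, was replicate 1 of genotype 20, the array scanned on day 4. In genotype 52 at 5 months the probe read 15.05 and 14.41, so the low level was found at 18 months and not at 5 months in the same clone, on arrays of other scan days.

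Spruce_27304 and Spruce_26396 were graded. Spruce_27304 read 8.85 and 8.45 in genotype 52, 9.22 and 11.06 in genotype 61, and 12.59 and 13.11 in genotype 70. Only 70 against 52 passed, at 18.5-fold and a limma adjusted p of 0.0115, and genotype 61 lay between with widely separated replicates. Spruce_26396 ran the other way, at 12.34 and 11.84 in genotype 52, 11.59 and 10.57 in genotype 61, and 9.07 and 9.20 in genotype 70. Genotype 70 was 7.74-fold below 52 there, with a limma adjusted p of 0.015.

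A probe was called set apart in a genotype when both of that genotype's pairwise differences passed in the same direction. This held for 64 probes. Genotype 52 was set apart at 22 of them, with 10 higher (0.0677%) and 12 lower (0.0812%). Genotype 61 was set apart by 8 higher (0.0541%) and 11 lower (0.0744%). Genotype 70 was set apart by 15 higher (0.102%) and 9 lower (0.0609%). In the reported fit these numbers were similar for the 3 genotypes. Genotype 52 cannot be fully told apart from its scan day, and the numbers per genotype were not counted under other fits. The total was 33 with scan period as a term, 21 with scan day as a random block and 2 with day 4 as a term.

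The 10 probes higher in genotype 52 were led by Spruce_15916, Spruce_07842 and Spruce_06069. Spruce_15916 read 11.56 and 11.37 in genotype 52, 7.58 and 8.20 in genotype 61, where it was not above background, and 6.45 and 7.80 in genotype 70, where 1 of 2 arrays was above background. Genotype 52 was at least 9.38-fold above 61 (limma adjusted p of 0.0265) and at least 9.4-fold above 70 (limma adjusted p of 0.0115). Here and below, a bound sets the bright genotype against the higher of the probe's own level and the lowest level above background on each array that was not above background. Fast genotype 15 matched genotype 52 at this probe with 11.38, while the other 6 fast arrays were at 8.75 or below.

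Spruce_07842 read 11.18 and 11.01 in genotype 52, 7.26 and 7.18 in genotype 61, and 7.82 and 7.89 in genotype 70. Genotype 70 was above background on 1 of 2 arrays and genotype 61 on neither. Genotype 52 was at least 8.67-fold above 61 and at least 7.02-fold above 70, with limma adjusted p-values of 0.00188 and 0.00756. No fast array exceeded 9.53. Spruce_06069 read 11.13 and 11.73 in genotype 52, 7.16 and 6.72 in genotype 61, and 8.79 and 8.17 in genotype 70. It was at least 10.9-fold above 61 (limma adjusted p of 0.00931) and at least 7.71-fold above 70 (limma adjusted p of 0.0442), again with 1 of 2 arrays of 70 and neither of 61 above background.

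In fast genotype 20, replicate 1 exceeded replicate 2 by 1.01 log2 units at Spruce_15916, 0.66 at Spruce_07842 and 1.03 at Spruce_06069. Over the 10 probes higher in genotype 52, the array of day 4 was the higher of the pair in 9 (90%). Genotype 20 shared the sign of genotype 52 at 67.4% of all tested probes. At probes set apart in 61 or 70 it did so at 29 of 42. Over all 10 probes the median difference was 0.48 log2 units in genotype 20, while genotype 52 exceeded 61 and 70 by a median of 2.67. The size in genotype 20 was thus smaller. The probes were chosen for a large difference of genotype 52, so a smaller size in genotype 20 is largely fixed by that choice.

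The 12 probes lower in genotype 52 were led by Spruce_30742, Spruce_30674 and Spruce_06513. Spruce_30742 read 9.89 and 10.27 in genotype 52, 14.89 and 15.44 in genotype 61, and 14.63 and 15.03 in genotype 70. Genotype 52 was 33.9-fold below 61 and 26.9-fold below 70, with limma adjusted p-values of 0.0265 and 0.0293. Spruce_30674 read 9.19 and 9.33 in genotype 52, 15.01 and 14.89 in genotype 61, and 13.51 and 13.83 in genotype 70. Genotype 52 was 51.7-fold below 61 (limma adjusted p of 0.023) and 21.2-fold below 70 (limma adjusted p of 0.0442).

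At both probes the other array of day 4 was also low. Fast genotype 20 read 11.75 in replicate 1 and 15.05 in replicate 2 at Spruce_30742, and 10.05 and 13.73 at Spruce_30674. Genotype 52 at 5 months, scanned on other days, read 15.61 and 14.65 at Spruce_30742 and 13.92 and 14.40 at Spruce_30674, as high as the other genotypes. Neither probe passed the F-test with scan day as a random block, where the limma adjusted p-values were 0.084 and 0.0926. Genotype 76 was low at Spruce_30674 too, at 8.86 and 10.86.

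Spruce_06513 behaved otherwise. It was not above background on either array of genotype 52, at 6.43 and 6.51, and read 10.40 and 11.40 in genotype 61 and 9.99 and 10.57 in genotype 70. Genotype 52 was at least 8.74-fold below 61 and at least 5.69-fold below 70, with limma adjusted p-values of 0.00214 and 0.00756. The day-4 array of fast genotype 20 was high here, at 11.02, and its replicate 2 read 10.55. Both 5-month arrays of genotype 52 were again not above background, at 6.58 and 8.67, as were both arrays of fast genotype 18 and the array of genotype 15.

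Over the 12 probes lower in genotype 52, the day-4 array of genotype 20 was the lower of its pair in 10 (83.3%). The sign was shared at 67.4% of all tested probes. Over all 12 probes, replicate 1 minus replicate 2 of genotype 20 had a median of -1.08 log2 units. In size this was again less than the median difference of genotype 52 itself, which the choice of probes largely fixes. The 5-month arrays of genotype 52 differed between the higher and lower sets. At the 10 higher probes the 5-month mean exceeded that of 61 and 70 in 10 of 10, by a median of 1.37 log2 units, and both 5-month arrays lay beyond all 4 arrays of 61 and 70 in 3 (background 4.2%). At the 12 lower probes the 5-month mean was below in 6 of 12, with a median difference of 0.01, and both arrays lay beyond in 2 (background 4.03%). Over all tested probes the median of this 5-month difference was 0.02 log2 units, and the share of probes on either side was not counted. The probes were chosen on the same arrays of 61 and 70, which partly fixes the side. The 5-month cuttings differ in age as well as in scan day.

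The 8 probes higher in genotype 61 included Spruce_09530, Spruce_28133 and Spruce_11677. Spruce_09530 read 10.50 and 11.58 in genotype 61 and was not above background on any array of genotypes 52 (7.25 and 7.69) or 70 (7.11 and 6.90). Genotype 61 was at least 9.17-fold above 52 and at least 8.19-fold above 70, with limma adjusted p-values of 0.0231 and 0.00971. Genotype 76 read 8.43, above background, and 8.67, not above it. The highest fast array, at 9.79, was replicate 1 of genotype 20.

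Spruce_28133 read 9.85 and 9.56 in genotype 61, 6.40 and 6.43 in genotype 52 and 6.26 and 6.21 in genotype 70. It was not above background on any array of 52 or 70. Like Spruce_09530, it therefore entered the test only through the arrays of genotype 61, where it is high. The bounds were 3.82-fold over 52 and 3.25-fold over 70, with limma adjusted p-values of 0.00214 and 0.00141. Only 1 of the 7 fast arrays, that of genotype 15, was above background there, at 7.77. Spruce_11677 read 10.20 and 11.43 in genotype 61, 8.01 and 7.88 in genotype 52, and 7.59 and 7.97 in genotype 70. Genotypes 52 and 70 were above background on 1 of 2 arrays each, and genotype 61 was at least 7.29-fold above 52 and at least 5.61-fold above 70, with limma adjusted p-values of 0.0357 and 0.0226. Fast genotype 35 shared the high level, at 11.71 and 12.60.

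Among the 11 probes lower in genotype 61, besides Spruce_12401, Spruce_07033 and Spruce_08552 led the order. Spruce_07033 was not above background in genotype 61, at 6.33 and 6.01. It was tightly placed in the others, at 9.29 and 9.27 in genotype 52 and 9.60 and 9.74 in genotype 70. Genotype 61 was at least 2.47-fold below 52 and at least 3.24-fold below 70, with limma adjusted p-values of 0.00662 and 0.00174. All 7 fast arrays were above background, at 8.10 to 10.73, so among genotypes 52, 61, 70 and the fast genotypes only 61 was dark. Genotype 76 was split, at 8.83 above background and 7.57 not above it.

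Spruce_08552 was not above background in genotype 61 either, at 7.38 and 8.03, and read 10.46 and 10.81 in genotype 52 and 11.47 and 10.55 in genotype 70. The bounds were 5.58-fold and 7.23-fold, with limma adjusted p-values of 0.0265 and 0.0121. Fast genotype 18 was dark at this probe as well, at 6.50 and 6.85, while the other 5 fast arrays lay between 9.84 and 10.77. Fast genotype 18 replicate 1 shared its scan day with genotype 61 replicate 2, but the other array of each did not.

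The largest difference that passed the test among the slow genotypes lay in genotype 61. Spruce_27873, named after its values were seen because an array at the scanner maximum kept it out of the ordered lists, had the smallest F-test p of all. It read 8.27 and 8.97 in genotype 61, 15.15 and 14.77 in genotype 52, and 16.00 and 15.04 in genotype 70. Genotype 61 was 6.34 log2 units below 52 (limma adjusted p of 0.000111) and 6.90 below 70 (limma adjusted p of 4.49e-05), with 1 of 2 arrays of 61 above background and 1 array of 70 saturated. Both folds are therefore bounds, of at least 80.7 and 119. Genotype 76 read 14.71 and 13.84.

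The 15 probes higher in genotype 70 included Spruce_16982 and Spruce_14084 besides Spruce_12774. Spruce_16982 read 11.81 and 11.80 in genotype 70 and was not above background in genotypes 52 (6.54 and 7.73), 61 (7.23 and 7.47) or 76 (6.89 and 6.87). It thus entered the test only through the arrays of genotype 70. Genotype 70 was at least 15.4-fold above 52 and at least 14.2-fold above 61, with limma adjusted p-values of 0.00418 and 0.00141. Both arrays of fast genotypes 20 (9.38 and 9.49) and 35 (11.36 and 10.69) had signal, and genotypes 15 and 18 did not. The replicates of fast genotypes 18, 20 and 35 were scanned on different days, and at this probe both arrays of each fell on the same side of background. For genotypes 61 and 70 this was fixed, because the probe also met the naming rule of signal in genotype 70 alone.

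Spruce_14084 read 12.35 and 13.50 in genotype 70, 8.24 and 9.75 in genotype 52, and 6.73 and 7.02 in genotype 61, where it was not above background. Genotype 52 was above background on 1 of 2 arrays. Genotype 70 was at least 15.2-fold above 52 and at least 30.9-fold above 61, with limma adjusted p-values of 0.0251 and 0.00174. The highest fast array read 10.35. Genotype 76 replicate 2 reached 13.99, and its replicate 1 read 10.65.

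Among the 9 probes lower in genotype 70 were Spruce_05290, Spruce_16588 and Spruce_10689. Spruce_05290 was not above background in genotype 70, at 6.46 and 6.47, and read 10.15 and 10.63 in genotype 52 and 9.64 and 10.36 in genotype 61. Genotype 70 was at least 5.23-fold below 52 and at least 3.98-fold below 61, with limma adjusted p-values of 0.00418 and 0.00239. Of the 7 fast arrays, 3 were above background, at 9.43 and 9.41 in genotype 35 and 8.24 in genotype 20 replicate 1. The other fast arrays, at 6.83 to 7.61, were not above background, like both arrays of genotype 70. Their order against genotype 70 therefore cannot be told.

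Spruce_16588 was also not above background in genotype 70, at 7.14 and 6.85, against 9.90 and 10.00 in genotype 52 and 10.25 and 10.32 in genotype 61. The bounds were 3.85-fold and 4.86-fold, with limma adjusted p-values of 0.0115 and 0.00335. Genotype 76 was not above background on either array, at 7.45 and 7.08, while all 7 fast arrays were above background at 8.89 to 11.88. On replicate 2 of genotype 76 the lowest level above background of any probe was 9.85, so that array says little here. Spruce_10689 read 7.97 and 8.54 in genotype 70, 10.89 on both arrays of genotype 52, and 10.47 and 11.16 in genotype 61. Genotype 70 was above background on 1 of 2 arrays and was at least 4.87-fold below 52 and at least 4.62-fold below 61, with limma adjusted p-values of 0.0201 and 0.0208.

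**Figure D5:**
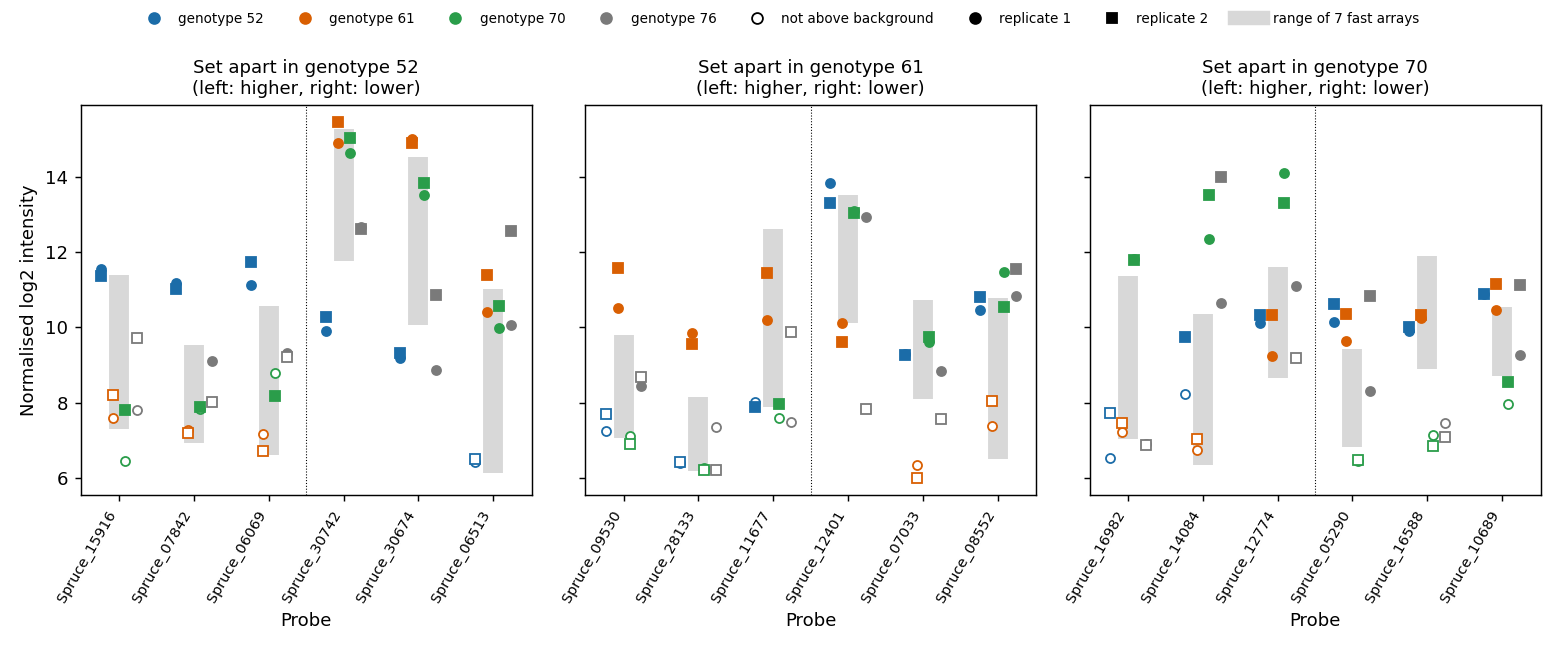
Normalised log2 intensity of the 18 probes that lead the sets apart in genotypes 52, 61 and 70, with 1 point per array, circles for replicate 1, squares for replicate 2, open symbols for arrays not above background and a grey bar from the lowest to the highest of the 7 fast arrays. In each panel the named genotype lies above the other 2 tested genotypes at the left 3 probes and below them at the right 3.

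Set against the fast genotypes, the sets differed in how far they lay outside the range of other clones. Both arrays of genotype 52 lay above all 7 fast arrays at 8 of its 10 higher probes (background 7.61%) and below them at 10 of its 12 lower probes (background 4.62%). For genotype 61 this held for 7 of 8 higher (background 3.38%) and 5 of 11 lower probes (background 3.04%). For genotype 70 it held for 12 of 15 higher (background 4.39%) and 7 of 9 lower probes (background 4.68%). At 6 of the 11 probes lower in genotype 61, at least 1 fast array was as low as an array of genotype 61. The fast arrays were in no contrast of the slow genotypes, but most of them entered the spread used in the fit. The members of each set were chosen for large differences on the same slow arrays. A share above background is partly fixed by that choice, so these shares are a description. The counts of lower probes also rank levels that were not above background, as at Spruce_05290 in genotype 70.

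The same fit called 72 probes among fast genotypes 18, 20 and 35 (0.487%). Of these, 20 were also among the 184 of the slow genotypes, which is 10.9% of the slow list and 27.8% of the fast list. The 2 lists share the estimate of spread, so the overlap is a description.

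Detection gives a second view that uses all 32144 probes and no test. On all 6 arrays 6396 probes (19.9%) were above background, and on none of them 14663 (45.6%). At 1417 probes (4.41%) both arrays of 1 genotype were above background and neither array of another was. Of the 184 probes that passed the F-test, 86 were among these. Which probes are counted depends on the cutoff. At 1 and 3 background standard deviations, 307 and 555 of the 1417 still met this description.

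Genotype 52 was alone above background at 159 probes (0.495%) and alone below it at 62 (0.193%). Genotype 61 was alone above at 32 (0.0996%) and alone below at 109 (0.339%). Genotype 70 was alone above at 51 (0.159%) and alone below at 51 (0.159%). The F-test called 11 (6.92%), 11 (34.4%) and 8 (15.7%) of the probes above background in 52, 61 and 70 alone, and 5 (8.06%), 11 (10.1%) and 9 (17.6%) of those below, against 1.25% of all tested probes. These probes were chosen by detection on the same arrays, and those above background in 1 genotype alone entered the test only through it, so their shares are a description. The 159 probes of genotype 52 were mostly dim, with a median bright level of 8.63, and most did not pass the test. Fast genotype 20 replicate 1, of day 4, was above background at 146 of the 159 (91.8%) and its replicate 2 at 27 (17%), against 96.9% and 80.4% of all tested probes.

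Spruce_26254 and Spruce_26255 are the pair that the naming rule took from the probes above background in genotype 52 alone. Spruce_26254 read 10.82 and 10.24 in genotype 52, 8.42 and 7.95 in genotype 61, and 8.68 and 7.92 in genotype 70. Spruce_26255 read 10.95 and 9.72 in genotype 52, 8.34 and 7.74 in genotype 61, and 8.73 and 8.77 in genotype 70. Neither passed the F-test in limma, with adjusted p-values of 0.0984 and 0.102. The day-4 array of fast genotype 20 read 10.09 and 9.94 at these probes, and its replicate 2 read 8.20 and 8.60. Of the 7 fast arrays, 3 were above background at Spruce_26254 and 4 at Spruce_26255. Among these at both probes were 2 arrays of scan day 2. Fast genotype 35 replicate 1 read 10.00 and 9.59, and fast genotype 15 read 9.31 and 8.81.

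Among genotypes 52, 61 and 70, Spruce_18434 and Spruce_31939 were dark in genotype 52 alone. Spruce_18434 read 6.71 and 6.38 in genotype 52, 13.53 and 14.37 in genotype 61, and 15.98 and 13.94 in genotype 70. Spruce_31939 read 7.17 and 6.97 in genotype 52, 14.38 and 13.20 in genotype 61, and 13.13 and 14.50 in genotype 70. Genotype 52 was at least 72.5-fold below 61 at the first probe and at least 64.8-fold below at the second. Neither passed the F-test, with limma adjusted p-values of 0.134 and 0.0881.

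Replicates of fast genotypes were split at these probes. Fast genotype 20 read 6.34 in replicate 1 and 13.92 in replicate 2 at Spruce_18434, and 6.88 and 14.28 at Spruce_31939. Fast genotype 35 read 14.08 and 6.42 at Spruce_18434. Genotype 52 at 5 months was bright at both, at 13.94 and 15.56 for Spruce_18434 and 13.80 and 13.16 for Spruce_31939. All 3 arrays of day 4 were dark at both probes. Genotype 76 read 14.36 and 14.25 at Spruce_18434. At Spruce_31939 it read 10.50 in replicate 1 and 7.48, not above background, in replicate 2.

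A further pair of probes shows the range of what detection alone means. Spruce_05756 counted as below background in genotype 61 alone, but its levels there, 11.97 and 12.16, were close to 12.83 and 12.77 in genotype 52 and 12.76 and 12.23 in genotype 70. Its F-test adjusted p in limma was 0.493. Spruce_16748 was above background in genotype 70 alone, at 10.30 and 10.89, against 7.98 and 7.80 in genotype 52 and 6.84 on both arrays of genotype 61. It too entered the test only through genotype 70. Genotype 70 was at least 6.13-fold above 61, with a limma adjusted p of 0.00147. Fast genotypes 20 (9.62 and 8.96) and 35 (10.05 and 10.28) also had signal, and genotypes 15 and 18 did not, the same division of clones as at Spruce_16982.

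Of the 184 probes, 69 passed the F-test in limma both with scan period as a term and with scan day as a random block. Only 21 passed with the 6 slow arrays alone in the fit, where 3 residual degrees of freedom remained, and 33 passed with genotype 76 added. The probes that passed under all 4 of these fits numbered 16. They include 13 of the 30 described above by rule, among them Spruce_09655, Spruce_07033, Spruce_28133, Spruce_16982, Spruce_14084, Spruce_05290 and Spruce_06513, and also Spruce_27873. Of those, Spruce_28133 and Spruce_16982 entered the test only through the genotype where they are high. The fit with day 4 as a term is not among the 4. Under it 26 probes passed the F-test, 24 of them among the 184, and their overlap with the 16 was not counted.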

How the data were processed

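Root-end RNA was amplified and labelled with an Alexa dye, per the labels' protocols, and each sample was hybridised to 1 spotted array. Per the file headers, the deposited scanner files give, without normalisation, the median pixel intensity of 34992 spots and of their local background. Of these spots, 2848 are controls. The columns of genotype 76 replicate 1 name a 532 nm channel. The authors' deposited table holds log2 values, with processing not given in the sources used here, and 0 of its columns lacked a sample. It served as an alternative. The image software is not given either.

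Intensities were background-corrected over all spots (normexp, offset 50), controls were removed, and quantile normalisation was run on the log2 values of 19 arrays in limma 3.58.1 under R 4.3.3. Probes above background on at least 2 of the 6 arrays of 52, 61 and 70 were kept (14778), and 17366 were left out. Genotype means were fitted on 12 arrays of genotypes 18, 20, 35, 52, 61 and 70 at 18 months, with 6 residual and 5.09 prior degrees of freedom. Tests were two-sided and adjusted by Benjamini-Hochberg over all 14778 probes at 0.05. The fit was also run on simulated arrays with independent noise and no effect of scan day. That run therefore cannot tell how scan day bears on the calls. The number of arrays limits the precision. A table match required a correlation above 0.8.

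Probes were named by rule: the 8 smallest F-test p-values among unsaturated probes above background on all 6 arrays, per genotype the 3 higher and 3 lower set-apart probes of largest smaller difference, and per genotype the 2 probes on alone and 2 off alone by level. Members, rules and tests were chosen with earlier results of these data known. Pathway lists were not used because the files name no genes. Alternatives in background, normalisation, filter, arrays fitted, scan timing and source are given in the closing section.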

Additional observations from a re-analysis of the deposited data

Results flagged for a closer look

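Of 4 measures over the 8 slow arrays at 18 months (probes above background, probes at the scanner maximum, median background, and mean rank correlation with the other 7 arrays), 1 held an array far from the rest. Genotype 76 replicate 2 had a mean Spearman correlation of 0.388 with the other 7 arrays, and the next lowest, genotype 70 replicate 1, had 0.659. The gap was 0.749 of the whole range, above Dixon's 95% critical value for 8 arrays. On 1 measure, chance sets an array apart in this way in about 1 of 20 groups, and 4 measures were screened. Genotype 76 was left untested partly because 1 of its arrays was known from an earlier analysis to be unlike all others. The flag is therefore a description and not a new finding. This array also had the fewest probes above background, 4944, and was scanned on the last of the 9 scan days. It entered none of the tests in the report.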

How the results depend on the processing

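Counts are given for the F-test, the set-apart probes, 61 against 52, 70 against 52 and 70 against 61, in that order, where the reported counts are 184, 64, 64, 125 and 72. Without background correction they were 94, 36, 25, 80 and 40. With the 6 arrays normalised and fitted alone they were 34, 14, 20, 22 and 8, and with the 6 arrays alone in the fit 34, 11, 20, 22 and 1. With genotype 76 added they were 33, 6, 16, 2 and 18, and with genotype 15 and the 5-month arrays added 96, 25, 44, 28 and 48. Requiring signal above background on all 6 arrays gave 18, 3, 5, 9 and 7, and no filter gave 204, 84, 117, 128 and 92. With scan period as a term they were 94, 33, 22, 47 and 78, with scan day as a random block 78, 21, 12, 33 and 68, and with day 4 as a term, chosen after seeing the data, 26, 2, 2, 1 and 69. Within the early scan period (2 residual degrees of freedom) they were 1804, 881, 117, 1897 and 1478, and within the later one (1 residual degree) 70 against 61 gave 1202. The lone arrays there are assumed to vary like the replicated genotypes. Array weights gave 127, 19, 43, 59 and 10, and a trended, robust variance 196, 93, 110, 136 and 95. The authors' table under its column names gave 3, 3, 1, 2 and 3. Background subtraction, median scaling and a filter on 4 of 19 arrays kept each count within 1.5 times. On-off probes numbered 1537 and 1325 at 1 and 3 background standard deviations, against 1417. Only 307 and 555 of them were shared with the 1417, so the totals were close but most of the probes changed.

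Leaving out 1 array gave 26 to 412 F-test calls, 2 to 185 set-apart probes, 2 to 257 calls for 61 against 52, 1 to 433 for 70 against 52 and 22 to 193 for 70 against 61, where a lone array is assumed to vary like the other genotypes. The F-test called 33 and 26 probes without genotype 52 replicate 1 and 2, 70 without genotype 70 replicate 1, and 388 without its replicate 2. It called 412 without either array of fast genotype 20, 71 without either of genotype 18 and 73 without either of genotype 35. Calls for 70 against 61 were 22 without genotype 70 replicate 1, 193 without its replicate 2, 46 and 175 without genotype 61 replicate 1 and 2, and 30 without either array of genotype 18. The cause was not tested.

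Under the authors' table, 21 differences of named probes changed sign. For 61 against 52 the values were 1.38 (Spruce_12401), 1.53 (Spruce_13053), -2.42 (Spruce_11769), 3.27 (Spruce_15916), -1.93 (Spruce_09530), -1.69 (Spruce_28133), -2.98 (Spruce_11677), 0.37 (Spruce_08552), 1.10 (Spruce_26254) and 1.12 (Spruce_26255). For 70 against 52 they were -0.15 (Spruce_27304), 0.75 (Spruce_26396), -1.68 (Spruce_14084) and -0.66 (Spruce_16982). For 70 against 61 they were -1.82 (Spruce_09655), -1.44 (Spruce_12401), 1.05 (Spruce_09530), 1.82 (Spruce_28133), -0.28 (Spruce_08552), -0.084 (Spruce_16748) and 0.39 (Spruce_16588). The table names the arrays differently, as described above. With day 4 as a term, 70 against 52 became -0.65 at Spruce_31939 and 61 against 52 became 0.12 at Spruce_05756, and neither had been called. No paired analysis was possible because the replicate numbers only name the arrays in order, and the last numbers of the titles share fewer than 2 values between any of the slow genotypes compared, so no pairs could be formed from them.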
